A study of Homo sapiens with 8 samples.

Results

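RP11-343N15.1, TINCR, LINC00174, LINC00302 and LINC00319 are 5 long non-coding genes whose reads were frequent in small RNA libraries of MEC-1 exosomes and nearly absent from libraries of MEC-1 cells. They were picked by name from 2709 non-coding features, and they were picked because of this contrast, so their exosome and cell values are given as a description with no test. MEC-1 is an established B-cell line from chronic lymphocytic leukaemia. The exosome group holds 5 libraries of vesicles from the culture supernatant, separated by ultracentrifugation and a density cushion, and the cell group holds 3 libraries of the parental cells. Both groups come from this 1 line, grown in bioreactors in medium with calf serum, which had been cleared of serum exosomes except in the upper medium compartment. No treatment is named for either group, and 3 of the exosome preparations had paired cell samples that the design text does not name. Whether the libraries of a group stem from separate cultures is not stated here, so a p-value reflects the spread among these libraries alone and that spread may be technical.

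Exosomes are small membrane vesicles that cells release, and they carry RNA along with proteins and lipids. Long non-coding RNAs are transcripts much longer than the RNA that a small RNA library takes in, so a read on one of these genes stands for a short piece that lies within the counted blocks and not for a whole transcript. Only RNA under 200 nt was isolated, per the labels' protocols. TINCR is known for a role in the differentiation of keratinocytes, the main cells of the epidermis, and it was later found to hold a small open reading frame. RefSeq lists TINCR as protein-coding and the other members as long non-coding. LINC00302 lies in RefSeq between LCE3A and LCE2D, genes for proteins of the cornified envelope of skin. RP11-343N15.1, in the newer annotation SRGAP2-AS1, comes next by start position after SRGAP2C, a human-specific copy of a gene that acts in neurons. LINC00174 comes between TPST1 and KCTD7, and LINC00319 comes after HSF2BP. These places were read from the order of gene starts, so they do not tell whether a gene overlaps its neighbour.

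The counted models, in GRCh37 coordinates as deposited, differ widely in size. RP11-343N15.1 lies on the minus strand at chr1:121102017-121140666, and its 5 counted blocks add up to 2649 nt, or 6.85% of the span. LINC00174 lies on the minus strand at chr7:65841031-65866325, with 11 blocks of 5627 nt. TINCR lies on the minus strand at chr19:5558178-5568045, with 4 blocks of 3925 nt. LINC00302 is the shortest, on the plus strand at chr1:152627953-152629280, with 3 blocks of 305 nt. LINC00319 lies on the plus strand at chr21:44866481-44873773, with 4 blocks of 4222 nt. No other feature of the tables overlaps these spans, so no listed small RNA lies inside a member. The listed features are non-coding, and overlap with protein-coding genes was not examined.

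**Figure D1:**
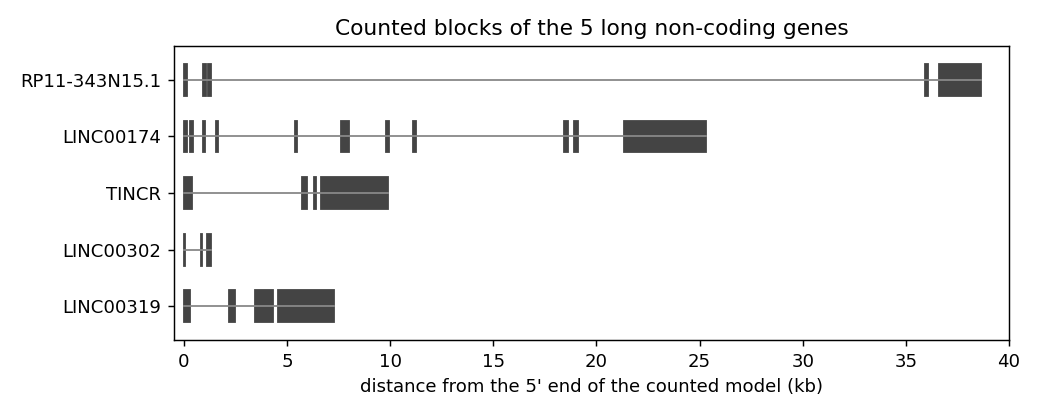
Counted blocks (dark boxes) of the 5 genes along their spans (grey lines), in kb from the 5′ end of each model. LINC00302 has 305 nt of counted sequence, and the other models have between 2649 and 5627 nt.

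The first 50 bases of 4 members are shown to identify the transcripts to which the counted models were matched. For RP11-343N15.1, LINC00174 and LINC00319 they come from GENCODE 29 transcripts (GRCh38) with the deposited block structure, and for LINC00302 from the RefSeq promoter table (GRCh38.p14), since LINC00302 was not matched in GENCODE 29.
RP11-343N15.1: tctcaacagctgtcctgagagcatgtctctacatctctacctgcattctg
LINC00174: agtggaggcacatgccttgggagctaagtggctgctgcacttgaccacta
LINC00319: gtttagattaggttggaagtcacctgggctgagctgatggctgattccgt
LINC00302: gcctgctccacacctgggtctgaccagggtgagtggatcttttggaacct

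The 5 block lengths of RP11-343N15.1 were those of 1 GENCODE 29 gene on the same chromosome and strand, SRGAP2-AS1. Of the stretches of 20 bases in its model, 95.3% also occur in other annotated genes, and 91.1% occur in FP700111.1, also on chromosome 1. For LINC00319 the share was 92.8%, nearly all of it in CU639417.4 on chromosome 21. Reads counted for these genes could therefore come from either copy, and how reads with several places were counted is not given in the sources used here. LINC00174 shared 11.6% and TINCR 9.18% of such stretches with other genes, beside a median of 7.49% over the other long non-coding genes that could be matched (132 of 203). No stretch of 20 bases was shared between any pair of the 4 matched members.

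Part of the shared sequence in TINCR and LINC00174 was 7SL-like, that is, like the RNA of the signal recognition particle. It made up 4.52% of the 20-base stretches of TINCR and 0.563% of those of LINC00174, and none in RP11-343N15.1 or LINC00319. Such sequence is not particular to these members. Of the 132 matched other long non-coding genes, 49 held at least 1 such stretch, and in JPX the share was 10.0%. The 7SL genes themselves were called higher in exosomes, RN7SL1 by 3.22, RN7SL2 by 3.05 and RN7SL3 by 3.97 on the log2 scale. Their part in the counts of TINCR and LINC00174 was not tested. The GC content was 62.6% for LINC00319, 58.4% for LINC00174, 58.3% for TINCR and 46.5% for RP11-343N15.1, and the quartiles of the matched other long non-coding genes were 43.5% and 53.6%.

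RP11-343N15.1 had 1221, 68, 163, 1606 and 905 reads in exosome libraries 1 to 5, and 3, 0 and 5 reads in cell libraries 1 to 3. As CPM, the count relative to a library total scaled with TMM factors, this was 37.5, 1.94, 3.57, 47.1 and 63.3 CPM in the exosomes and 0.0823, 0 and 0.0964 CPM in the cells. Exosome libraries 2 and 3 were far below the other exosome libraries, yet the groups did not overlap. The mean was 30.7 ± 27.1 CPM in exosomes (SD, n = 5) and 0.0596 ± 0.0521 CPM in cells (SD, n = 3), with a fitted log2 fold change of 8.83 (SE 1.42). With 1 library left out it ran from 8.20, without cell library 2, to 9.62, without cell library 3.

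LINC00302, the shortest model, had 209, 41, 54, 332 and 157 reads in the exosome libraries, and 0, 0 and 2 reads in the cell libraries. The CPM values were 6.41, 1.17, 1.18, 9.74 and 10.98 in exosomes and 0, 0 and 0.0385 in cells. The reads in cells all came from library 3, and the fitted log2 fold change of 8.24 (SE 1.27) became 10.70 without that library. With 2 reads in the whole cell group, the ratio of pooled reads per total, exosome over cell, was 383, with an exact 95% interval of 106 to 3166 that covers counting error only. A count of 0 in cell library 2, the case for RP11-343N15.1, TINCR and LINC00302, allows up to 0.0551 ppm of the total.

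LINC00174 was the member with the most reads in cells. It had 1122, 252, 764, 2222 and 1237 reads in exosomes, and 32, 4 and 52 reads in cells. This gave 34.4, 7.19, 16.7, 65.2 and 86.5 CPM in exosomes and 0.878, 0.133 and 1.00 CPM in cells. The lowest exosome library stood 7.17 times above the highest cell library. The mean was 42.0 ± 33.3 CPM in exosomes (SD, n = 5) and 0.671 ± 0.470 CPM in cells (SD, n = 3), with a fitted log2 fold change of 5.94 (SE 1.02). Leaving out 1 library at a time moved the log2 fold change to between 5.31, without cell library 2, and 6.62, without cell library 3.

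TINCR had 309, 22, 38, 366 and 297 reads in exosomes, and 2, 0 and 12 reads in cells. Its CPM values were 9.48, 0.627, 0.833, 10.7 and 20.8 in exosomes and 0.0549, 0 and 0.231 in cells. The groups came closest in TINCR, where the lowest exosome library was 2.71 times the highest cell library. The fitted log2 fold change was 6.30 (SE 1.33), on means of 8.49 ± 8.32 CPM in exosomes (SD, n = 5) and 0.0954 ± 0.121 CPM in cells (SD, n = 3). Without cell library 3, which held 12 of its 14 reads in cells, the log2 fold change was 8.28 (SE 1.87).

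LINC00319 had 138, 17, 85, 170 and 160 reads in exosomes, and 1, 5 and 3 reads in cells. Its CPM values were 4.24, 0.485, 1.86, 4.99 and 11.2 in exosomes and 0.0274, 0.166 and 0.0578 in cells. Its highest cell value was in library 2, which had no read on 3 of the other members. The mean was 4.55 ± 4.13 CPM in exosomes (SD, n = 5) and 0.0839 ± 0.0730 CPM in cells (SD, n = 3), with a fitted log2 fold change of 5.75 (SE 1.1). With 1 library left out it ran from 5.14, without exosome library 5, to 6.41, without cell library 2.

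**Figure D2:**
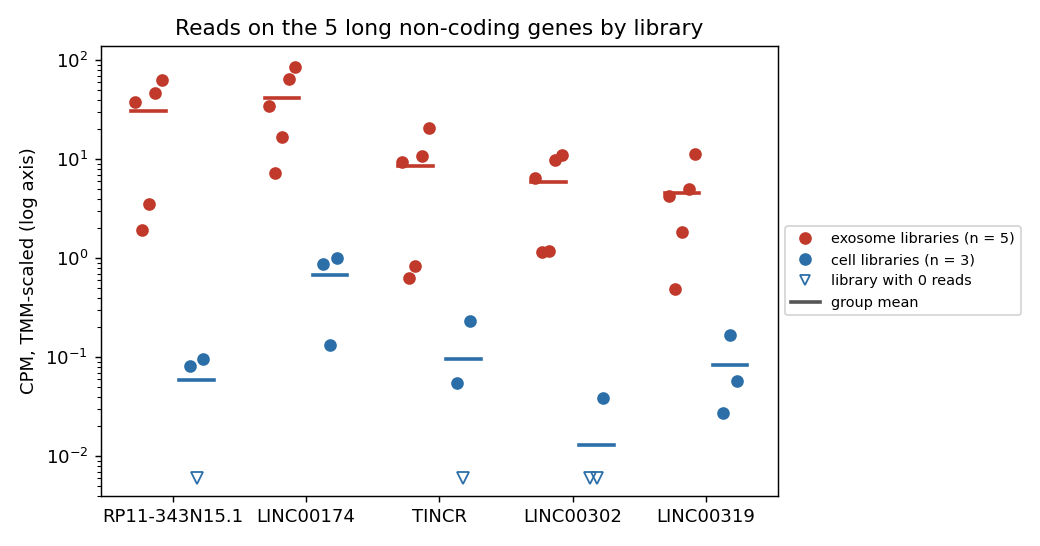
CPM of the 5 genes in each exosome library (red, left) and each cell library (blue, right) on a log axis, with group means as bars and open triangles, set at the bottom of the axis, for libraries with 0 reads. Every exosome value lies above every cell value of the same gene, with the smallest gap for TINCR (2.71 times).

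All 5 members passed the filter on low counts, which they did through the exosome libraries. Groups that do not overlap were found for 21.6% of the 1178 features tested with exosomes above and for 20.1% with exosomes below, and 20.7% were called higher in exosomes by edgeR's quasi-likelihood test at an adjusted p under 0.05. The members were chosen on this contrast, so nothing is read from all 5 lying in both sets. Since each library gives shares of its own reads, more of these fragments and less of other RNA in the vesicles cannot be told apart.

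The members are the highest over cells only where a minimum of reads is set. Among the 27 long non-coding genes with a mean of at least 100 reads in exosome libraries, their fitted log2 fold changes took ranks 1 to 5. Among all 96 genes tested of the long non-coding class, from which XIST, TSIX, the TTTY genes and small RNA hosts known by their symbol were left out, RP11-343N15.1 and LINC00302 kept ranks 1 and 2, while TINCR, LINC00174 and LINC00319 took ranks 9, 11 and 12. Among all 1178 features tested, RP11-343N15.1, LINC00302, TINCR, LINC00174 and LINC00319 took ranks 3, 6, 22, 25 and 27. The genes in between had few reads, among them 4 FAM138 copies with 0 reads in every cell library. FAM138F, the most abundant of these copies, had 32, 4, 9, 49 and 29 reads in exosomes.

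Just inside the limit was LINC00319 at 5.75, and just outside was LINC00052 at a log2 fold change of 5.54. LINC00052 had 147, 5, 23, 378 and 55 reads in exosomes and 6, 0 and 4 reads in cells, so that 1 exosome library fell within the range of the cells. The next of the class were TRNAI2 at 5.50, a feature of 113 nt with a transfer RNA symbol, ZNF295-AS1 at 5.29, FAM95B1 at 4.93 and AC006129.4 at 3.08. TSIX, which was left out of the class, had 5.08. ZNF295-AS1 owed its place to 1 library: it had 2320 reads in exosome library 5, and between 6 and 63 reads in the other exosome libraries. Without that library its log2 fold change was 0.14 (SE 0.84).

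The order of levels was read per length, as CPM per kb of counted model. LINC00302 had the highest level in exosomes, 19.3 ± 15.15 CPM per kb (SD, n = 5), above each other member within all 5 libraries. RP11-343N15.1 followed at 11.6 ± 10.2, LINC00174 at 7.46 ± 5.91, TINCR at 2.16 ± 2.12 and LINC00319 at 1.08 ± 0.977 CPM per kb (SD, n = 5 for each). RP11-343N15.1 and LINC00174 were not in a steady order, since RP11-343N15.1 was higher in 3 of 5 libraries, with a ratio between 0.453 and 2.31. TINCR exceeded LINC00319 in 4 of 5 libraries, and every other pair kept its order in 5 of 5. The spread between libraries was as large as most of these steps, with an SD close to the mean for each gene.

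**Figure D3:**
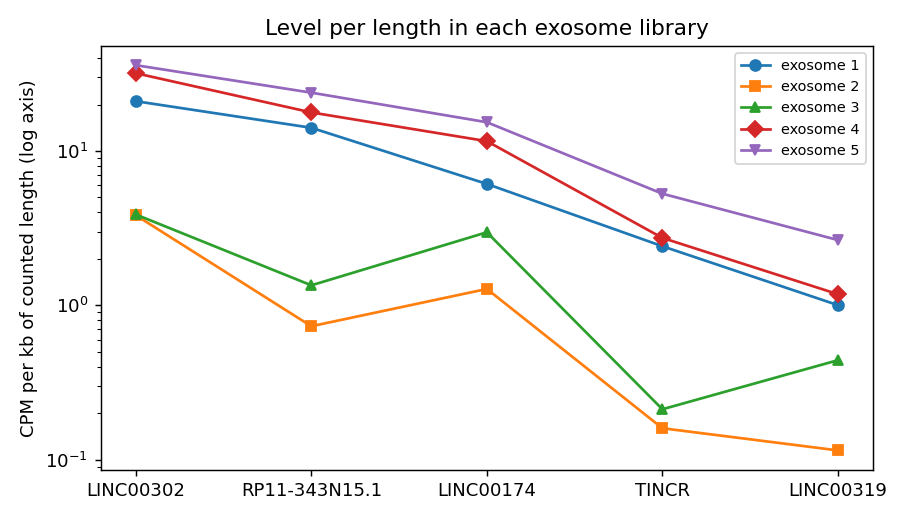
CPM per kb of counted length (log axis) of the 5 genes, 1 line for each exosome library. LINC00302 is at the top in all 5 libraries, and the lines of exosome libraries 2 and 3 lie below the others at every gene and place LINC00174 above RP11-343N15.1.

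Exosome libraries 2 and 3 were the lowest pair of exosome libraries for all 5 members. Between the highest and the lowest exosome library the CPM differed 33.1 times for TINCR, 32.6 times for RP11-343N15.1, 23.1 times for LINC00319, 12.0 times for LINC00174 and 9.39 times for LINC00302. The upper end depends on the scaling, since library 5, highest in CPM, had a TMM factor of 0.524. Scaled by library totals alone, library 4 was highest for every member, and libraries 2 and 3 stayed lowest. LINC00319 then ran from 0.103 to 1.42 times its median, against 0.114 to 2.64 times in CPM. In CPM relative to each gene's own median over the exosome libraries, the median deviation of the members was -3.0 in library 2, -2.39 in library 3, 0.33 in library 4 and 1.13 in library 5 on the log2 scale. Other long non-coding genes moved in the same direction by less, with median deviations of -1.44 and -0.99 in libraries 2 and 3. The same pair was lowest for 68 of 91 other long non-coding genes, or 74.7%, against 22.8% of all features tested.

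The mix of members changed with it. RP11-343N15.1 made up 40.7%, 17%, 14.8%, 34.2% and 32.8% of the members' reads in exosome libraries 1 to 5, and LINC00174 made up 37.4%, 63.0%, 69.2%, 47.3% and 44.9%. Libraries 2 and 3 thus held the smallest shares of RP11-343N15.1. Mitochondrial features took 4.76% and 8.71% of all reads in these libraries, and 1.27%, 2.76% and 1.04% in exosome libraries 1, 4 and 5. Whether this difference in make-up bears on the members was not tested.

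**Figure D4:**
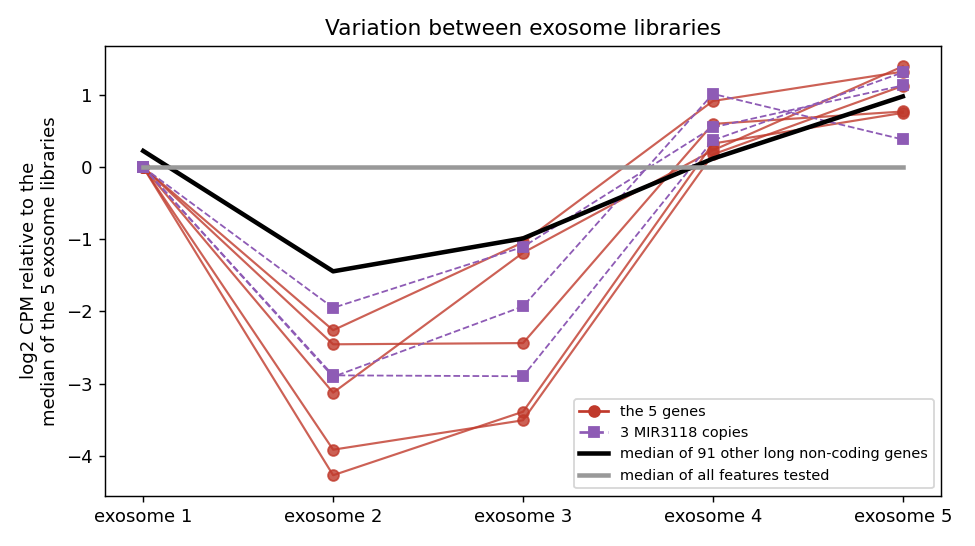
Log2 CPM in each exosome library relative to the feature's own median over the 5 exosome libraries, for the 5 genes (red), the 3 MIR3118 copies (purple, dashed), and the medians of 91 other long non-coding genes (black) and of all 1178 features tested (grey). The members and the MIR3118 copies lie below the median in exosome libraries 2 and 3, where the black line is at -1.44 and -0.99.

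Together the members took 111, 12.4, 34.0, 201 and 101 ppm of all reads in exosome libraries 1 to 5, and 1.48, 0.165 and 1.29 ppm in cell libraries 1 to 3. Within the reads of the long non-coding class they were 14.3%, 4.64%, 5.69%, 20.2% and 17.3% in exosomes, and 0.182%, 0.116% and 0.279% in cells. The rest of the class did not differ in its summed share beyond the spread. It took 552 ± 204 ppm in exosomes (SD, n = 5) and 471 ± 334 in cells (SD, n = 3), a difference of 81.4 ppm with a two-sided exact permutation p of 0.679, where the smallest possible p is 0.0357. Without cell library 2 the difference turned to -82.8 ppm.

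Counted gene by gene, 41 of the 91 other long non-coding genes tested were called higher in exosomes, 1 was called lower and 49 were not called, and their median log2 fold change was 2.10. Over all 1178 features 20.7% were called higher and 22.3% lower, with a median of -0.09. A gene can pass the filter on low counts through the exosome libraries alone, as FAM138F did with 0 reads in every cell library. The share called higher thus depends on the filter. Without a filter, 57 of 219 were called higher and 2 lower, beside 15.05% of all features called higher. Leaving out exosome library 1 gave 26 of 76 tested called higher, beside 18.1% of all features, and leaving out cell library 2 gave 27 of 112, beside 16.2% of all features. In a fit of libraries 1 to 3 of each group, 13 of 60 were called higher, beside 16.4% of all features. Genes with a LINC symbol had 16 of 42 called higher, and those without had 25 of 49. Genes kept out of the class as small RNA hosts by their symbol, which are not all the hosts, had 3 of 25 called higher and 8 lower, with a median of -0.63.

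Among the genes called higher were FTX, a non-coding gene of the X-inactivation centre, with a log2 fold change of 2.63 (SE 0.69, adjusted p = 0.00586 by edgeR's quasi-likelihood test), and TCL6, a gene from a breakpoint region of T-cell leukaemia, with 2.24 (SE 0.71, adjusted p = 0.0176 by the same test). CECR7 was called at 2.10, ZNF718 at 2.43 and TRNAI6, another feature with a transfer RNA symbol, at 2.99. The call of TCL6 was lost without cell library 2 (adjusted p = 0.0631, edgeR's quasi-likelihood test), that of ZNF718 without cell library 2 or 3 or exosome library 1, and that of CECR7 without any 1 of the cell libraries or exosome library 1 or 5. LINC00324 was the only one called lower, at -1.68 (SE 0.59, adjusted p = 0.0316, edgeR's quasi-likelihood test). It averaged 4.71 ± 1.72 CPM in exosomes (SD, n = 5) and 15.0 ± 15.12 CPM in cells (SD, n = 3), and its highest cell value, 32.5 CPM, was in library 2. Its call was lost when exosome library 1, 2, 3 or 4 or cell library 2 or 3 was left out, and without cell library 2 the value was -0.57.

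Most of the abundant genes of the class were not called. C1orf132, which hosts miR-29 genes, averaged 115 ± 38.9 CPM in exosomes (SD, n = 5) and 134 ± 76.5 CPM in cells (SD, n = 3), and its log2 fold change was -0.23 (SE 0.55). MALAT1, a nuclear RNA of splicing speckles, had -0.16 (SE 0.57), and NEAT1, the scaffold of nuclear paraspeckles, had -1.30 (SE 0.61). Without cell library 2 NEAT1 was called lower, at -1.89 (SE 0.54, adjusted p = 0.0148, edgeR's quasi-likelihood test). LINC00338, a host of a small Cajal body RNA, had 0.34 (SE 0.59) and LINC00461, a host of a miR-9 gene, had -0.98 (SE 0.58). LINC00461 had 335, 426, 1170, 1147 and 95 reads in exosomes and 1668, 1065 and 1225 in cells. MIR9-1 had 232, 396, 1046, 909 and 52 reads in exosomes and 1665, 1056 and 1214 in cells. How much of the reads on these hosts is small RNA was not tested. Among the 31 matched genes called higher the median GC content was 52.1%, and among the 24 tested but not called it was 45.7%.

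**Figure D5:**
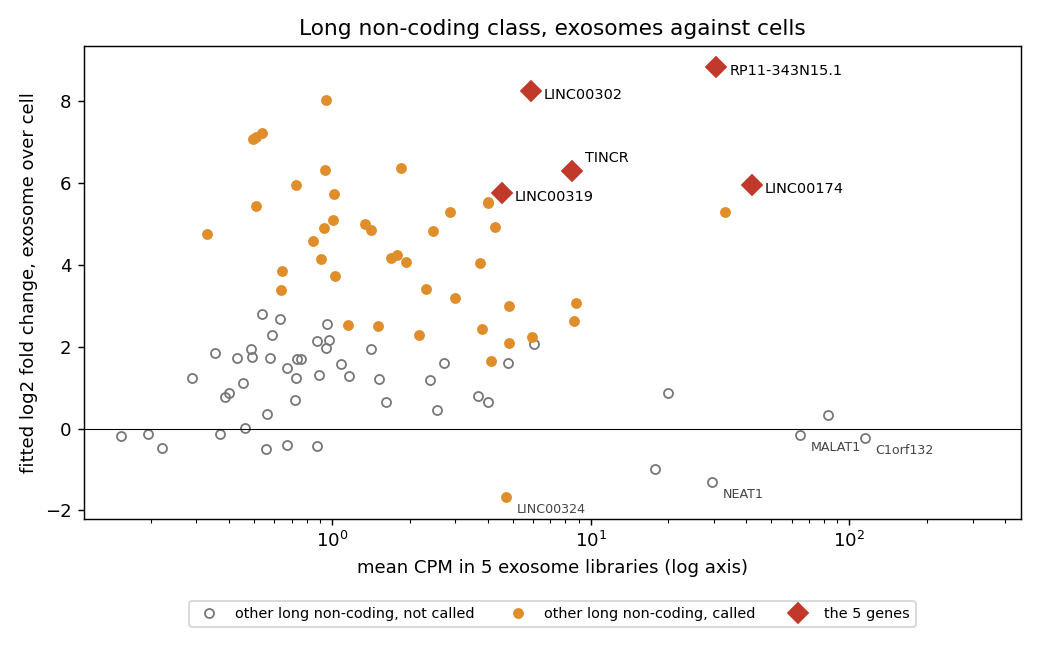
Fitted log2 fold change, exosome over cell, against mean CPM in the 5 exosome libraries (log axis) for 96 long non-coding genes, with the 5 genes as red diamonds, called genes in orange and genes not called as open circles. RP11-343N15.1 is highest at 8.83, while MALAT1 and C1orf132 lie near 0 at -0.16 and -0.23.

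Likeness was measured as the root mean square difference between the log2 CPM profiles of 2 features over the 8 libraries, each centred on its own mean, so a small value means a like pattern. It includes the contrast on which the members were chosen and is given as a description. The 3 features nearest to LINC00302, out of 1177, were MIR3118-3 at 0.31, MIR3118-2 at 0.38 and MIR3118-1 at 0.42. MIR3118-3 was also nearest to RP11-343N15.1, at 0.86, and to TINCR, at 0.57. MIR3118-3 had 213, 31, 40, 289 and 233 reads in exosomes and 0, 0 and 3 reads in cells, beside 209, 41, 54, 332 and 157 reads in exosomes and 0, 0 and 2 reads in cells on LINC00302. In exosome library 3, MIR3118-1, MIR3118-2 and MIR3118-3 had 131, 82 and 40 reads, so the counts differed between copies. What part of these reads is mature microRNA was not tested. The MIR3118 copies carry 1 mature sequence in RefSeq (GRCh38.p14), which does not tell them apart. It is shown here with the seed, bases 2 to 8, in capitals.
hsa-miR-3118: uGUGACUGcauuaugaaaauucu
The longest exact stretch that a MIR3118 hairpin shared with a matched member was 9 bases in RP11-343N15.1 and TINCR and 10 bases in LINC00174 and LINC00319. LINC00302, the member most like the MIR3118 copies, was not matched and so was not compared with the hairpins.

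LINC00302 was second in likeness to RP11-343N15.1, at 0.88. LINC00174 was nearest to TSIX at 0.66 and the let-7 host gene MIRLET7DHG at 0.66, and the vault RNA VTRNA1-1, from a ribonucleoprotein particle of the cytoplasm, was rank 3 for TINCR at 0.73. By this measure LINC00319 was the member farthest from each of the others. Its nearest features were MIR622 at 0.63, HAR1B at 0.63 and FAM138F at 0.68, and RP11-343N15.1 was only rank 130 for it. A few reads in cells weigh heavily here: in cell library 2 LINC00319 had 5 reads and RP11-343N15.1 had 0. The rank thus does not show a distinct pattern within exosomes.

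Markers of cell types that the medium or culture could bring in were read from microRNAs. Of the 8 B-cell and leukocyte markers 4 were measured, none was called, and their summed level ran from 6479 to 18381 CPM in exosomes and from 13007 to 27246 CPM in cells. This sum was mostly MIR21, with 17910 CPM in exosome library 1 and 26818 CPM in cell library 1. The log2 fold change was -0.85 for MIR21, 1.58 for MIR150, 0.32 for MIR181A1 and 0.74 for MIR181B1. Of the skin and epithelium markers, named here because of the skin biology of TINCR and LINC00302, 1 of 6 was called higher, MIR203 at 3.83 (adjusted p = 0.017, edgeR's quasi-likelihood test). It had 18, 10, 24, 33 and 63 reads in exosomes and 6, 0 and 5 reads in cells. The rest of this list was not called and had negative values, -0.71 for MIR200A, -1.26 for MIR200B, -0.08 for MIR200C, -1.51 for MIR141 and -0.82 for MIR429. Their summed level was 17.5 to 26.2 CPM in exosomes and 22.4 to 53.0 CPM in cells. Liver and gut markers had 2 of 4 called higher, with sums of 62.6 to 153 CPM in exosomes and 11.5 to 47.4 CPM in cells. Stroma and endothelium markers had 3 of 5 called higher, with sums of 17.2 to 85.4 CPM in exosomes and 2.26 to 7.61 CPM in cells. In CPM the liver and gut sum was highest in exosome library 5, at 153, followed by 144 in exosome library 3. This order depends on the scaling, since the TMM factors of these libraries were 0.524 and 1.41. In reads, MIR122 had 1002 in library 5 and 5193 in library 3, and MIR192 had 1132 and 1215. The stroma and endothelium sum was highest in exosome library 3. Red cell, platelet and myeloid markers had 0 of 2 called, with sums of 25.7 to 93.2 CPM in exosomes and 14.8 to 51.7 CPM in cells, and neural markers had 0 of 2 tested called, with sums of 7.27 to 53.4 CPM in exosomes and 46.8 to 91.4 CPM in cells. The MIR124 copies were at 0 reads in every library, and no muscle marker was tested, with sums of at most 4.19 CPM in exosomes and 0.0578 CPM in cells. The part of foreign RNA in the members' counts was not tested.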

How the data were processed

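The deposited tables hold raw read counts, in featureCounts format per the file headers, for 2709 non-coding features in each of 8 libraries. Tools named in the submitters' processing notes are cutadapt 1.1, STAR, featureCounts and DESeq2 1.8.2, with GRCh37 as build. How strand and multiply placed reads were handled is not given in the sources used here. Exosome totals spanned 23353820 to 32436286 counts and cell totals 25675636 to 57323598, and rRNA took 37.7% to 72.4% of exosome and 24.6% to 30.7% of cell counts. Without molecular identifiers, intervals and floors cover counting error only.

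R 4.3.3 and edgeR 4.0.16 gave the quasi-likelihood fit, with TMM factors, the default filter (minimum count 10) and Benjamini-Hochberg adjustment over 1178 features, called at an adjusted p under 0.05. CPM used TMM-scaled library sizes. The TMM factor was 0.524 in exosome library 5 and between 1.08 and 1.46 in the other exosome libraries. CPM values of library 5 are thus raised relative to its total. The summed share was tested with an exact permutation test over 56 splits (SciPy 1.17.1). The long non-coding class was set by symbol: 231 features besides the members, 27 of them with a small RNA symbol, with XIST, TSIX, the TTTY genes and 27 small RNA hosts known by their symbol left out. Hosts with other symbols, such as C1orf132, LINC00338 and LINC00461, stayed in it, so its summed share can include reads of their small RNAs. Likeness used log2 of CPM plus 0.05. Models of 203 of these other genes were looked for in GENCODE 29 by symbol and block structure, and 132 matched.

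Named are the members, the 3 features nearest to each, the 5 long non-coding genes just below the members, the 10 largest called changes in each direction averaging 100 counts or more in the higher group, and the 5 most abundant of each group; FAM138F and the 7SL genes were added after their values were seen. Members and lists were chosen with earlier results of these data known. Alternatives were other scalings, filters and tools (DESeq2 1.42.0 and limma-voom, limma 3.58.1), libraries left out, a replicate block, and rRNA left out.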

Additional observations from a re-analysis of the deposited data

Results flagged for a closer look

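Of 44 sets of exosome values checked, 5 had 1 library standing apart from the other exosome libraries by the critical ratio of 0.71 of gap to range, and chance flags about 1 in 20 such groups. No member was among them. ZNF295-AS1 reached 162 CPM in exosome library 5, where the next highest exosome library had 1.93 CPM. LINC00543 reached 3.29 CPM in exosome library 5, against 0.645 CPM in the next. LINC00324 reached 7.69 CPM in exosome library 5, against 4.48 CPM in the next. In reads that library was the lowest for LINC00324, with 146, 142, 184, 112 and 110 in exosome libraries 1 to 5. Its high CPM there goes with the small TMM factor of library 5, 0.524. TRNAI2 reached 7.13 CPM in exosome library 4, against 3.81 CPM in the next. The muscle markers summed to 4.19 CPM in exosome library 5, against 0.767 CPM in the next.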

How the results depend on the processing

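Every member stayed higher in exosomes under all alternatives, which is no test, since the members were chosen on this contrast. The log2 fold changes lay between 7.18 and 9.62 for RP11-343N15.1, 4.91 and 6.62 for LINC00174, and 4.79 and 8.28 for TINCR. They lay between 6.99 and 10.70 for LINC00302 and between 4.45 and 6.41 for LINC00319. The value of 10.70 for LINC00302 came without cell replicate 3, the only cell library with reads on it, and left-out libraries otherwise gave 7.67 or more. The count of other long non-coding genes called higher, 41, became 57 without a filter, where 219 were tested, beside 15.05% of all features. With at least 50 counts in 3 libraries it was 18 of 31 tested, beside 27.11% of all features. It was 26 to 43 when 1 library was left out. The count called lower, 1, became 0 with total count scaling, upper-quartile factors, the stricter filter, rRNA left out, DESeq2 and limma-voom, 2 without a filter, and 0 to 1 with 1 library left out. Restricted to features of at least 200 nt without a small RNA symbol, 39 of 87 were called higher and 1 lower. Without exosome replicates 2 and 3 together, an alternative chosen after seeing the data, 42 of 82 were called higher and 0 lower. Features called in all, 507, ranged from 413 to 491 with 1 library left out. The difference in the summed class share, 81.4 ppm, ranged from -82.8, without cell replicate 2, to 251 with 1 library left out, and was 510 ppm of the rest with rRNA left out of the denominator (exact permutation p = 0.214). Over all features the median log2 fold change moved from -0.09 to 0.19 with total count scaling, 0.25 with upper-quartile factors and 0.31 with rRNA left out. Whether replicate numbers pair the samples is not known. Correlations between same-numbered deviations were 0.03, -0.05 and 0.17, and so few values cannot decide it. With the replicate block on numbers 1 to 3, 333 features were called, with 10 other long non-coding genes higher and 0 lower of 60 tested, beside 14.7% of all features called higher. Without the block those libraries gave 13 and 0, beside 16.4%. The cause of these moves was not tested. Depth limits the cell values, which rest on 0 to 52 reads.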
